A study of Homo sapiens with 12 samples.

Results

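The 8 libraries of ALDH+ 697 (EU3) cells that carry the SH2 construct were compared by the set they came from: sets 1 and 2 (4 libraries) against sets 3 and 4 (4 libraries). They are 8 of the 12 libraries of the series, and they were taken by their titles, so every SH2 library is in the comparison. The line 697 is a human B-cell precursor leukaemia line. Each set was a new sort of ALDH+ cells (high aldehyde dehydrogenase activity, read with a fluorescent substrate) followed by its own doxycycline treatment, so the comparison is 2 independent sorts against 2. SH2 is a short hairpin RNA against IGF2BP1 that doxycycline induces together with a green fluorescent reporter. In each set 1 SH2 library came from untreated cells and 1 from doxycycline-treated cells, which the protocol says were sorted for the reporter, and doxycycline was a covariate of the fit. The other 4 libraries came from cells labelled only as a control for doxycycline, untreated and treated, in sets 2 and 4. The labels give no sequence, clone or viral integration site for SH2, and no dose or time of doxycycline.

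Aldehyde dehydrogenases oxidise reactive aldehydes, and ALDH1A1 makes retinoic acid from retinal. High activity of the family is used to sort progenitor-like fractions of normal and leukaemic blood. Precursor B cells are defined by the surrogate light chain, by the recombination enzymes and by the transcription factors PAX5 and EBF1. IGF2BP1 binds mRNAs and can protect them from decay; it is made in the embryo and again in many cancers.

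The set pairs were chosen because they differed in these same values, ALDH1A1 among them. Differences between sets 1 and 2 and sets 3 and 4 are therefore given as sizes with a standard error and without a p-value. The fit took each library as a separate replicate, with no term for the set. Libraries of the same sort are not independent, so the standard errors and SDs can understate the spread between sorts. A gene was counted as different when the fitted change was at least 2-fold and none of the 4 library values of one pair overlapped those of the other. Of 11968 genes tested, 725 (6.06%) met this rule. In sets 1 and 2, 435 were higher (3.63%) and 290 were lower (2.42%). At the edge of the rule stood C5orf30 (2.0002-fold higher) and TECPR2 (2.0014-fold lower) just inside, and NCAPD2 (1.9995-fold) and TRIM4 (1.9994-fold) just outside. Levels are CPM, the counts of a gene relative to the TMM-scaled total of its library, and log2 fold changes are sets 1 and 2 minus sets 3 and 4. Of the 725 genes, 298 had a mean log2 CPM under 3 and so rest on few reads.

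The sets did not form a pair of tight clusters. On the first principal component of the 8 libraries (43.4% of the variance) set 1 lay at 53.7 untreated and 49.4 treated, and set 2 at 16.0 and 16.7. Set 3 lay at -21.4 and -28.1. The untreated library of set 4 lay at -3.81 and the treated one at -82.5, beyond every other library. Set 1 correlated with set 2 at 0.944 to 0.955 and with set 3 at 0.889 to 0.902, while set 2 correlated with set 3 at 0.939 to 0.947. The untreated and treated libraries of set 4 correlated with each other at 0.897, against 0.961 to 0.965 within the other sets. In 616 of the 725 genes the mean of set 2 lay between those of set 1 and of sets 3 and 4. In 95 of the 725 (13.1%) it was nearer to sets 3 and 4 than to set 1. The rule puts set 2 beyond sets 3 and 4 in all these genes, so these counts only place set 2 relative to set 1. By component 1 and the correlations the sets ran in a series from set 1 through set 2 to set 3, with the treated library of set 4 apart. Without that library 695 genes were counted, of which 584 were among the 725 (80.6% of the 725).

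**Figure D1:**
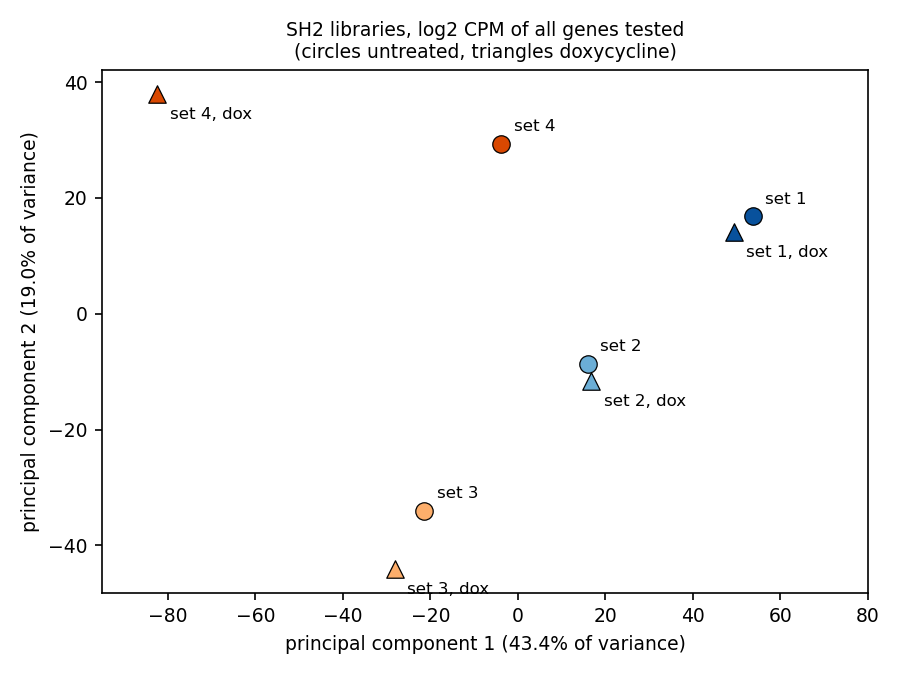
Principal components of the 8 SH2 libraries from log2 CPM of 11968 genes; circles are untreated and triangles doxycycline-treated libraries, coloured by set. Along component 1 set 1 lies at 53.7 and 49.4, set 2 at 16.0 and 16.7 and set 3 at -21.4 and -28.1, while untreated set 4 (-3.81) and treated set 4 (-82.5) are far apart.

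The libraries of the series held 2210291 to 3370952 reads in genes. The share of those reads from mitochondrially encoded genes was 4.83% to 6.70% in sets 1 and 2 and 7.67% to 8.73% in sets 3 and 4, with no overlap. Genes with a count numbered 15847 to 16880 and 16802 to 17439. Of the light chain reads counted at IGKC, the IGLC genes and IGLL5, IGKC took at most 0.139% in the SH2 libraries and 99.6% to 99.9% in the control libraries. IGLV6-57, a lambda variable gene left out of these shares, had 187 to 459 reads in the control and 7 to 22 in the SH2 libraries. PAX5 and CD79A, which define the B lineage, were read in all 8 SH2 libraries, PAX5 with 248 to 571 counts and CD79A with 319 to 1313. T-cell markers summed to 85.7 to 168 CPM in sets 1 and 2 and 123 to 165 in sets 3 and 4, myeloid markers to at most 30.4 and erythroid and megakaryocyte markers to at most 2.93. Of the T-cell markers, CD2, CD5, TRBC1 and THEMIS had 0 counts in all 8 SH2 libraries. Others were read there: over the 8 libraries CD3G had 1033 counts, TRBC2 506, LCK 415, BCL11B 404 and CD3D 296. The mitochondrial share and the position of treated set 4 moved with the set pairs; their part in the differences given here was not tested. In bulk RNA, fewer cells of a kind and less RNA per cell cannot be told apart.

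Among aldehyde dehydrogenases, ALDH1A1, ALDH4A1 and ALDH7A1 were higher in sets 1 and 2. ALDH1A1 (ENSG00000165092, GRCh38 chromosome 9, 72900662 to 73080442) stood at 22.1 and 14.7 CPM in set 1 (untreated, then treated) and at 16.3 and 9.87 in set 2. In set 3 it stood at 1.30 and 1.65 and in set 4 at 3.92 and 1.35. The lowest library of sets 1 and 2 was above the highest of sets 3 and 4, and the log2 fold change was 2.91 ± 0.41 (SE), with means of 15.7 ± 5.06 and 2.05 ± 1.26 CPM (SD, n = 4 each). ALDH4A1, an enzyme of proline breakdown in mitochondria (chromosome 1, 18871430 to 18902781), was at 32.4 and 38.1 CPM in set 1, 21.6 and 16.3 in set 2, 2.27 and 4.28 in set 3, and 13.6 and 5.73 in set 4. Its log2 fold change was 2.07 ± 0.47. ALDH7A1, which acts in lysine breakdown (chromosome 5, 126531200 to 126595418), was at 24.6 and 11.7 CPM in set 1, 4.15 and 5.32 in set 2, 0.648 and 0.988 in set 3, and 2.11 and 1.35 in set 4, a log2 fold change of 3.08 ± 0.63. The family did not move as a whole: of 14 members tested 3 were counted as higher (21.4%, against 3.63% of all genes tested) and 0 as lower. ALDH1A2 had a log2 fold change of -2.98 without meeting the rule, and its value was 0 in untreated libraries alone. Of the 14 members 6 were positive, and the median was -0.04, as over all genes tested (-0.04). The summed level of the family was 438 to 466 CPM in sets 1 and 2 and 413 to 468 in sets 3 and 4. In control cells ALDH1A1 was at 7.12 and 8.01 CPM in set 2 and 9.76 and 10.3 in set 4, a log2 difference of -0.41 (set 2 minus set 4; edgeR adjusted p = 0.856).

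The other genes of the series title were closer between the set pairs. IGF2BP1 (chromosome 17, 48997412 to 49055650), the target of SH2, was at 21.7 and 6.28 CPM in set 1, 30.5 and 14.8 in set 2, 39.2 and 25.04 in set 3, and 32.9 and 16.2 in set 4. Treated was below untreated in each of these 4 sets, and the set pairs overlapped (log2 fold change -0.69 ± 0.31). Its doxycycline response was -1.30 ± 0.49 in sets 1 and 2 and -0.80 ± 0.46 in sets 3 and 4 on the log2 scale, and the difference between these responses was -0.50 ± 0.67 (edgeR adjusted p = 1). MYB, a transcription factor of blood progenitors, ran from 254 to 652 CPM in sets 1 and 2 and from 103 to 387 in sets 3 and 4 (0.70 ± 0.39), and IGF2BP3, the paralogue, differed by -0.07 ± 0.27. HOXB4, a homeobox factor of blood stem cells, was at or below 1.23 CPM in all 8 libraries and IGF2BP2 had too few counts to be tested.

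Among genes meeting the rule whose log2 CPM averaged 3 or more (clone names left out), the 12 largest differences toward sets 1 and 2 were in TMSB15A, MT1G, NUDT11, TRHDE, CNN3, PLAUR, HLTF, STAT5B, GBE1, NEURL1B, CRYL1 and EPB41L2. TMSB15A, a beta-thymosin that binds actin (ENSG00000158164, chromosome X, 102513676 to 102516784), was at 26.6 and 49.4 CPM in set 1, 12.5 and 12.5 in set 2, 1.30 and 1.65 in set 3, and 4.22 and 2.69 in set 4. Its log2 fold change was 3.28 ± 0.54, the largest of these 12 genes. MT1G, a metallothionein that binds zinc and copper (ENSG00000125144, chromosome 16, 56666731 to 56668065), was at 132 and 71.6 CPM in set 1, 85.1 and 30.0 in set 2, 13.3 and 7.58 in set 3, and 20.5 and 3.37 in set 4. Its log2 fold change was 2.91 ± 0.36, and the treated library was below the untreated one in all 4 sets. Its neighbours in the metallothionein family differed less: MT1X by 1.04 ± 0.27, MT1F by 1.25 ± 0.57 and MT2A by -0.24 ± 0.48, each with overlapping libraries. The family shares sequence, so reads can be split among its members.

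STAT5B, which carries cytokine signals to the nucleus (chromosome 17, 42199168 to 42276707), was at 86.5 and 91.7 CPM in set 1, 35.9 and 56.2 in set 2, 17.5 and 14.8 in set 3, and 15.7 and 4.04 in set 4 (2.40 ± 0.42). PLAUR, the urokinase receptor (chromosome 19, 43646095 to 43670547), was at 36.1 and 30.2 CPM in set 1, 13.9 and 19.4 in set 2, and between 3.89 and 4.53 in the 4 libraries of sets 3 and 4 (2.52 ± 0.37). For both genes set 1 was above set 2 and set 2 above sets 3 and 4. KIT, a receptor of early progenitors (chromosome 4, 54657918 to 54740715) was at 14.8 and 21.4 CPM in set 1, 5.34 and 14.0 in set 2, 1.94 and 0.659 in set 3, and 4.53 and 0.337 in set 4 (2.89 ± 0.65). FLT3, another such receptor (chromosome 13, 28003274 to 28100592) was at 11.0 to 25.1 CPM in sets 1 and 2 and 2.02 to 4.83 in sets 3 and 4 (2.31 ± 0.40). ABCG2, an efflux transporter used to mark side-population cells, was at 9.49 to 36.5 CPM against 1.68 to 9.22 (2.13 ± 0.54).

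By the same level and exclusion, the 12 largest differences in the other direction were in SNORD13, CYTH4, CLGN, SAMHD1, ABCA7, RIMS2, TRIM66, HMOX1, IQCE, MYO10, GIMAP8 and GDF15. CLGN, a chaperone of the endoplasmic reticulum (ENSG00000153132, chromosome 4, 140388455 to 140427968), was at 2.87 and 5.45 CPM in set 1, 5.93 and 7.59 in set 2, 33.0 and 28.7 in set 3, and 19.9 and 42.4 in set 4 (-2.49 ± 0.33). HMOX1, the inducible haem oxygenase (chromosome 22, 35380361 to 35394214), was at 3.28 and 6.28 CPM in set 1, 16.6 and 14.8 in set 2, 63.5 and 45.5 in set 3, and 26.6 and 41.8 in set 4 (-2.08 ± 0.44). GDF15, a secreted stress cytokine (chromosome 19, 18374731 to 18389176), was at 29.1 and 17.6 CPM in set 1, 60.8 and 54.7 in set 2, 187 and 181 in set 3, and 154 and 71.8 in set 4 (-1.86 ± 0.39). In HMOX1 and GDF15 set 2 stood between set 1 and sets 3 and 4. CYTH4, an exchange factor for ARF proteins, and SAMHD1, a dNTP hydrolase, were far higher in 1 library: CYTH4 was at 83.2 CPM and SAMHD1 at 87.2 CPM in treated set 4, against 6.59 to 15.4 and 8.10 to 10.5 in the other libraries of sets 3 and 4.

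**Figure D2:**
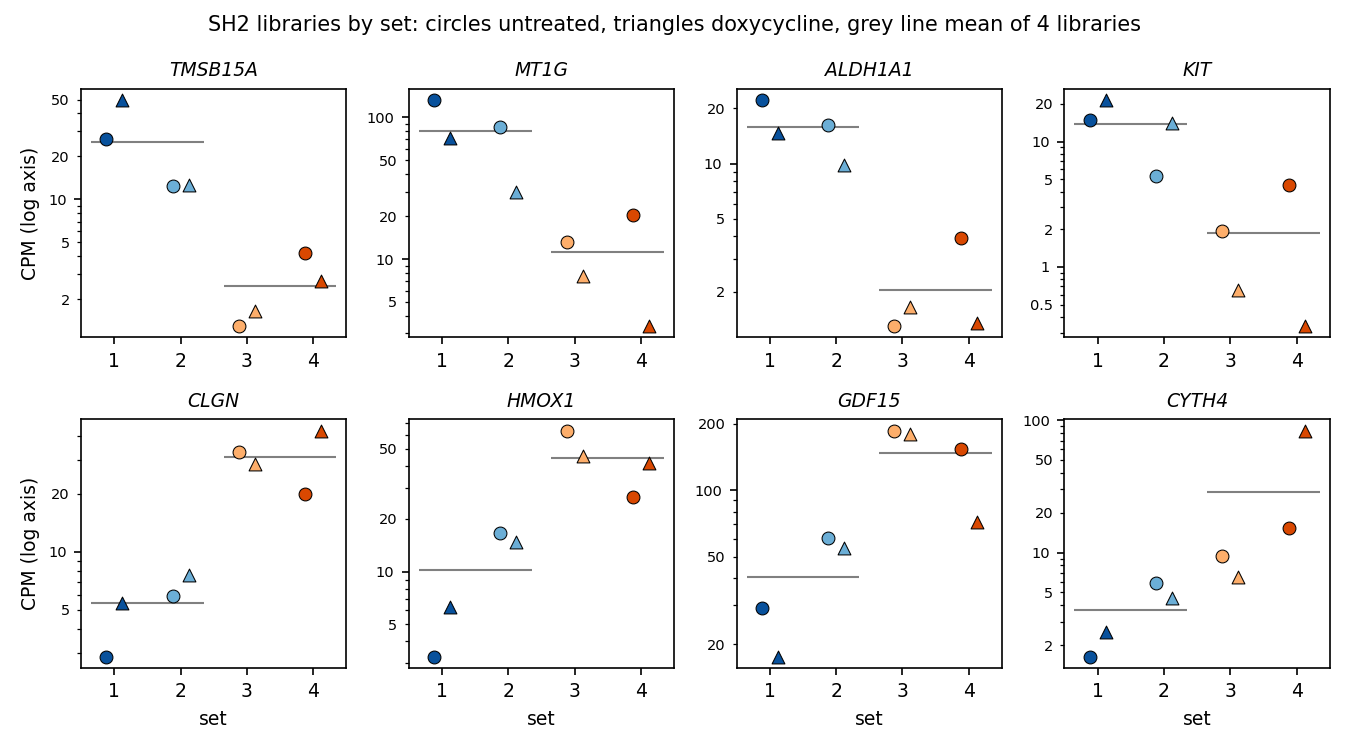
CPM on a log axis of 8 genes in the 8 SH2 libraries by set; circles are untreated, triangles doxycycline-treated, and the grey line is the mean of the 4 libraries of a pair. In ALDH1A1 all libraries of sets 1 and 2 are at 9.87 CPM or above and all of sets 3 and 4 at 3.92 or below; CYTH4 is at 83.2 CPM in treated set 4.

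Genes of the cell cycle were higher in sets 1 and 2. The list of the transition from G1 to S phase and of DNA replication held 31 tested genes, of which 28 were positive. The list's median was 0.67. The 2-fold rule was met as higher by 7 of the 31 (22.6%, against 3.63% of all genes tested). It was met as lower by 0 (against 2.42%). TYMS, thymidylate synthase (chromosome 18, 657604 to 673578), was at 409 and 506 CPM in set 1, 202 and 253 in set 2, 89.4 and 83.7 in set 3, and 70.9 and 74.1 in set 4 (2.10 ± 0.30). RRM2, the small subunit of ribonucleotide reductase (chromosome 2, 10120698 to 10131419), was at 78.3 and 73.7 CPM in set 1, 50.1 and 64.2 in set 2, 19.8 and 23.4 in set 3, and 27.2 and 10.8 in set 4 (1.72 ± 0.29). CCND3, the D-type cyclin of B-cell precursors (chromosome 6, 41934933 to 42050357), was at 1682 and 1689 CPM in set 1, 749 and 855 in set 2, 232.9 and 299 in set 3, and 463 and 313 in set 4 (1.93 ± 0.34). The remaining 4 were the licensing factor CDT1 (1.31 ± 0.27), the transcription factors E2F1 (1.46 ± 0.30) and E2F8 (1.64 ± 0.43) and thymidine kinase TK1 (1.14 ± 0.24). The median deviation of the list from the mean of the 8 libraries was 0.47 and 0.60 in set 1, 0.13 and 0.10 in set 2, -0.45 and -0.49 in set 3, and -0.36 and -0.02 in set 4 (log2, untreated then treated). Without both libraries of set 4 the count was 12 and the median 0.93, and without set 1 they were 6 and 0.49. With fewer libraries the rule is easier to meet. Without set 4 it was met in either direction by 12.5% of all genes tested. That share was 6.45% without set 1 and 11% in untreated libraries alone, against 6.06% in the main fit.

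E2F factors drive many of these genes from sites near their start. The letters TTTNNCGC, which resemble the E2F site, were searched on both strands in the 300 bases from 250 before to 50 after each RefSeq gene start (GRCh38.p14), a choice made after the values were seen. They occurred in 2418 of 35114 promoters (6.89%) and in 15 of the 26 promoters matched of the 31 listed genes (57.7%). Since E2F drives many listed genes, a high share over the list follows from its choice and is no result of these data. They occurred in 3 of the 6 matched of the 7 that met the 2-fold rule (50%), not above the share of the list. These 3 are shown because they hold the letters. Capitals mark the matches, of which E2F1 has 4, a pair of them overlapping, CDT1 has 2 and TYMS has 1. E2F1 lies at chr20:33686336-33686635 (minus strand), CDT1 at chr16:88803539-88803838 (plus strand) and TYMS at chr18:657403-657702 (plus strand).
E2F1: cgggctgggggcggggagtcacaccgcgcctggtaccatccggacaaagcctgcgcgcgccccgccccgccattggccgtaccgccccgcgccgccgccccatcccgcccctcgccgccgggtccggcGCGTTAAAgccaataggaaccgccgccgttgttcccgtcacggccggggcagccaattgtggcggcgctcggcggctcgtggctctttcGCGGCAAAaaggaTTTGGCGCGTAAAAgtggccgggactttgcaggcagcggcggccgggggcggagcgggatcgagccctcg
CDT1: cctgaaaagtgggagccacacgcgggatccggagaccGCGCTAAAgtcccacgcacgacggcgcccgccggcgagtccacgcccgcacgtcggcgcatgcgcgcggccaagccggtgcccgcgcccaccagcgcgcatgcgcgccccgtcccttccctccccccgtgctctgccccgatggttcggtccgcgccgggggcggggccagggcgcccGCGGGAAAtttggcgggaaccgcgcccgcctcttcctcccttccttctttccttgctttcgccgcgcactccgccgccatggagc
TYMS: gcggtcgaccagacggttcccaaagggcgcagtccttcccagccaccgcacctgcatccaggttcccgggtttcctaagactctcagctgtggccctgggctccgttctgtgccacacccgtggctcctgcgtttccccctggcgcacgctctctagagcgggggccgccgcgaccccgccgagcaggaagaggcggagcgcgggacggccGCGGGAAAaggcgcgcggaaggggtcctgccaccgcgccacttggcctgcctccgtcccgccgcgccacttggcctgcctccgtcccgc
RRM2, TK1 and CCND3 had no match in this window. A match describes the letters only, and binding was not measured.

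Genes of G2 and mitosis were also higher in sets 1 and 2, but this rested on set 4. All 28 tested were positive and 4 met the rule as higher (14.3%, against 3.63% of all genes tested). These were CDK1 (1.18 ± 0.32), AURKB (1.05 ± 0.40), DLGAP5 (1.22 ± 0.44) and PTTG1 (1.20 ± 0.33), which act in entry into mitosis, the spindle and the release of sister chromatids. CDK1 was at 122 and 174 CPM in set 1, 97.0 and 157 in set 2, 80.3 and 84.3 in set 3, and 27.5 and 47.2 in set 4. The list's median deviation was 0.47 and 0.58 in set 1, 0.39 and 0.71 in set 2, 0.20 and 0.40 in set 3, and -1.36 and -1.40 in set 4. Set 3 was on the side of sets 1 and 2, and both libraries of set 4 were low. Without set 4, 0 of 28 met the rule and the median was 0.34 in place of 0.93. Without set 1, 9 met it as higher (428 of all 11968 genes tested did), and without treated set 4, 2 did (416 of all genes).

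A few genes of the amino acid and endoplasmic reticulum stress responses met the rule as lower in sets 1 and 2. Of 30 tested targets of ATF4, the transcription factor of the integrated stress response, 26 were negative, with a median of -0.50. Of the 30, 4 met the rule as lower (13.3%, against 2.42% of all genes tested). WARS, a tryptophanyl-tRNA synthetase (chromosome 14, 100333788 to 100376805), was at 218 and 185 CPM in set 1, 311 and 249 in set 2, 495 and 447 in set 3, and 826 and 1756 in set 4 (-1.83 ± 0.41). TRIB3, a pseudokinase (chromosome 20, 362835 to 397559), was at 72.5 and 62.8 CPM in set 1, 182 and 129 in set 2, 209 and 209 in set 3, and 367 and 606 in set 4 (-1.63 ± 0.42). Without treated set 4 the log2 fold change was -1.21 for WARS and -1.15 for TRIB3. DDIT3, which encodes CHOP (-1.09 ± 0.28), and the cystine transporter SLC7A11 (-1.05 ± 0.35) were the others. STC2, on the same list, went the other way (1.22 ± 0.42, overlapping libraries). The list's median deviation was -0.38 and -0.66 in set 1, 0.12 and -0.11 in set 2, 0.26 and 0.12 in set 3, and 0.49 and 0.40 in set 4, so set 1 was the lowest and set 2 lay close to set 3. Without set 1 the median was -0.25 and 2 genes met the rule.

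Of 20 tested genes of the unfolded protein response 19 were negative. SEL1L, a part of the machinery that removes misfolded proteins, alone met the rule (5% of the list, against 2.42% of all genes tested). SEL1L (chromosome 14, 81471549 to 81533861) was at 75.8 and 82.5 CPM in set 1, 106 and 123 in set 2, 252 and 213 in set 3, and 259 and 151 in set 4 (-1.16 ± 0.26). The list's median was -0.81, and -0.12 without set 4 (8 of 20 positive), whose untreated library deviated by 1.12. In untreated libraries alone 8 of the 20 met the rule as lower, as did 616 of all 11968 genes tested. HYOU1, an endoplasmic reticulum chaperone, was at 723 and 844 CPM in set 4 against 114 to 326 in the other sets. PPP1R15A (GADD34), which reverses the block on translation in the integrated stress response, was at 33.1 to 136 CPM in sets 1 and 2 and 174 to 254 in sets 3 and 4 (-1.63 ± 0.37). With DUSP5 it was 1 of 2 that met the rule among 19 immediate early genes (10.5%, against 2.42% of all genes tested). Among 20 heat shock chaperones, HSPH1 (-1.06 ± 0.31) and DNAJB6 (-1.10 ± 0.27) met it as lower (10%, against 2.42% of all genes tested), and 16 of 20 were negative. Without set 1 or without set 4 the count of chaperones was 0, and it was 1 without treated set 4.

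**Figure D3:**
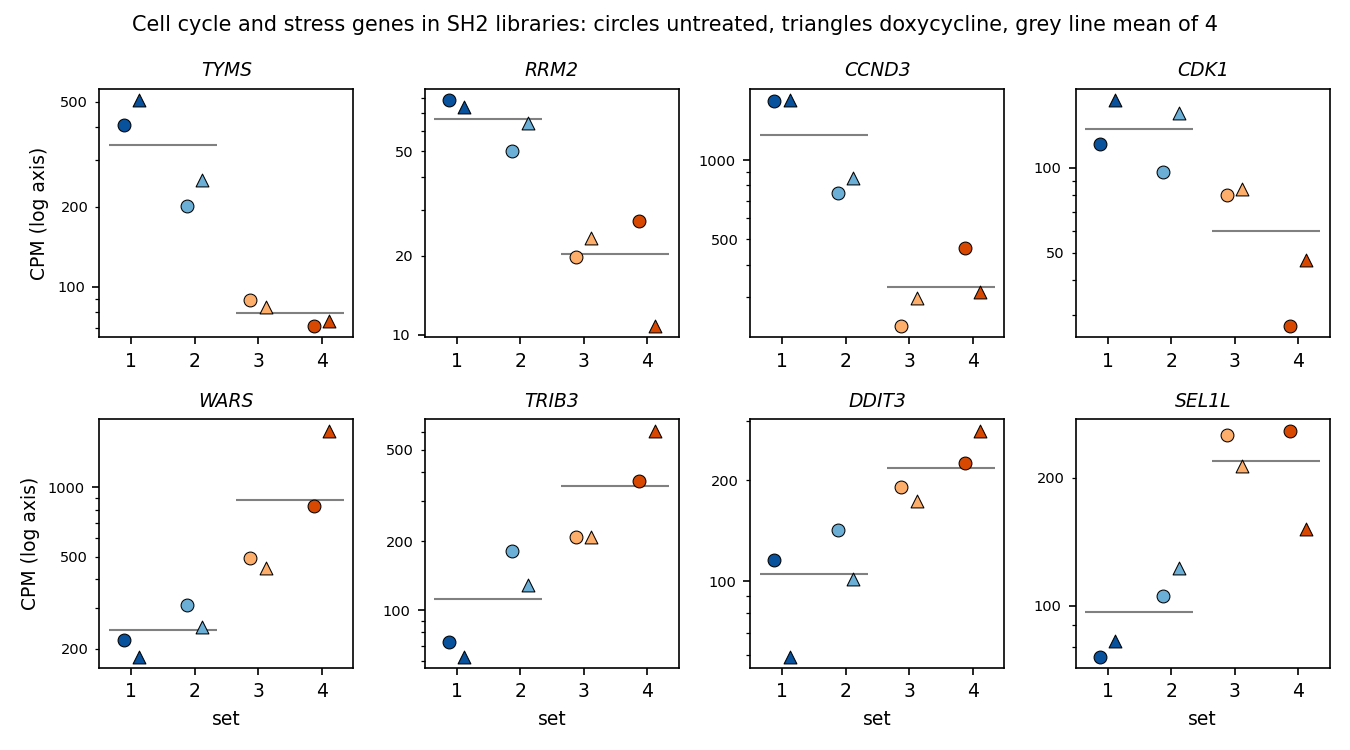
CPM on a log axis of 4 cell cycle genes (top) and 4 stress response genes (bottom) in the 8 SH2 libraries by set; circles are untreated, triangles treated, grey lines means of 4 libraries. TYMS is at 202 CPM or above in sets 1 and 2 and at 89.4 or below in sets 3 and 4, and WARS reaches 1756 CPM in treated set 4.

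Of 29 tested genes of the precursor B-cell stage 25 were positive (median 0.58; in untreated libraries alone 22, with a median of 0.23). KIT, FLT3 and the inhibitory receptor CD22 (1.07 ± 0.28) met the rule as higher (10.3% of the list, against 3.63% of all genes tested). MS4A1, which encodes CD20 of mature B cells, met it as lower (3.45%, against 2.42%). MS4A1 had 0 counts in both libraries of set 1 and 14.5 CPM in treated set 4, with at most 2.59 CPM in the other 5. DNTT, which adds bases at immunoglobulin joints, was at 1196 and 1136 CPM in set 1, 507 and 505 in set 2, 160 and 196 in set 3, and 621 and 145 in set 4. Untreated set 4 was above both libraries of set 2, so the groups overlapped (1.69 ± 0.46). IGLL1 and VPREB1, the chains of the surrogate light chain, had the same order: IGLL1 was at 219 CPM and VPREB1 at 225 CPM in untreated set 4, and at 34.02 and 41.4 CPM in treated set 4. The list's median deviation was 0.38 in untreated and -1.28 in treated set 4. Without both libraries of set 4, 11 genes of the list met the rule as higher and 1 as lower. Of all 11968 genes tested, 881 then met it as higher and 617 as lower. Among 26 B-lineage transcription factors, EBF1 was at 80.1 to 135 CPM in sets 1 and 2 and 27.3 to 75.7 in sets 3 and 4 (1.16 ± 0.29). POU2F2 (OCT2), a factor of later B cells, was at 20.9 and 26.4 CPM in set 1, 126 and 87.7 in set 2, 248 and 261 in set 3, and 177 and 194 in set 4 (-1.75 ± 0.48). IKZF3, at or below 2.69 CPM in every SH2 library, was the other that met the rule as lower. Of this list 3.85% met the rule as higher and 7.69% as lower.

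All 8 tested MHC class II genes were positive (median 1.20). HLA-DRA and HLA-DRB1 met the rule (25%, against 3.63% of all genes tested). Without set 4, 4 of the class II genes met it as higher, as did 881 of all 11968 genes tested. HLA-DRB1, a chain of the receptor that presents peptides to T cells (chromosome 6, 32578769 to 32589848), was at 57.0 and 32.7 CPM in set 1, 85.1 and 30.8 in set 2, 11.3 and 7.25 in set 3, and 24.7 and 6.74 in set 4 (2.07 ± 0.29). HLA genes are highly similar and several sit on alternative haplotypes of the build, so their reads can be divided among copies. Of 28 tested interferon response genes 26 were negative in sets 1 and 2 (median -1.13) and 3 met the rule as lower (10.7%, against 2.42% of all genes tested). These were OAS1 (-1.54 ± 0.42), XAF1 (-2.53 ± 0.61) and IFIH1 (-1.33 ± 0.38). HERC5 met it in the other direction (1.82 ± 0.40). MX1 was at 161 CPM and IFI44L at 73.1 CPM in treated set 4, against at most 15.2 and 1.52 CPM in the other 7 libraries, and the median of the list was -0.47 without treated set 4 and -0.28 without both libraries of set 4 (9 of 28 positive).

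All 71 cytosolic ribosomal protein genes were positive (median 0.49) and all 15 mitochondrially encoded genes negative (median -0.53), with 0 of either meeting the 2-fold rule. The ribosomal list deviated by 0.42 and 0.37 in set 1, 0.02 and 0.21 in set 2, -0.54 and -0.37 in set 3, and 0.23 and -0.35 in set 4, so untreated set 4 was again on the side of sets 1 and 2. Without set 4, 18 of the 71 ribosomal protein genes met the rule as higher, as did 881 of all 11968 genes tested. Of 31 genes of glycolysis and hypoxia, BNIP3 of mitophagy (2.19 ± 0.52) and the kinase PDK1 (1.17 ± 0.34) met the rule as higher, with a median of 0.35. From the IGF2BP and LIN28 list of 7, ARID3B (-1.44 ± 0.40) and ARID3A (-1.10 ± 0.27) met it as lower. Among 22 genes of p53 and apoptosis the rule was met by PHLDA3 (1.72 ± 0.53) and BAX (1.002 ± 0.27) as higher and GDF15 as lower. In the remaining lists the rule was met as higher by HLA-B among 9 genes of MHC class I, KIT among 13 stem cell regulators, MGST3 among 24 redox genes and ABCG2 among 16 ABC transporters. It was met as lower by RUNX3, HMOX1 and ABCA7 of the last 3 of these lists, by PECAM1 and CADM1 among 25 adhesion genes, and by HIST1H3D among 13 histone genes. Over all genes tested 3.63% met it as higher and 2.42% as lower, so 1 or 2 genes of a list here describe those genes only. The rule was met by 0 genes among 23 of cholesterol synthesis, 14 of fatty acid synthesis, 17 NF-kB targets, 31 MYC targets and 10 immunoglobulin genes.

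**Figure D4:**
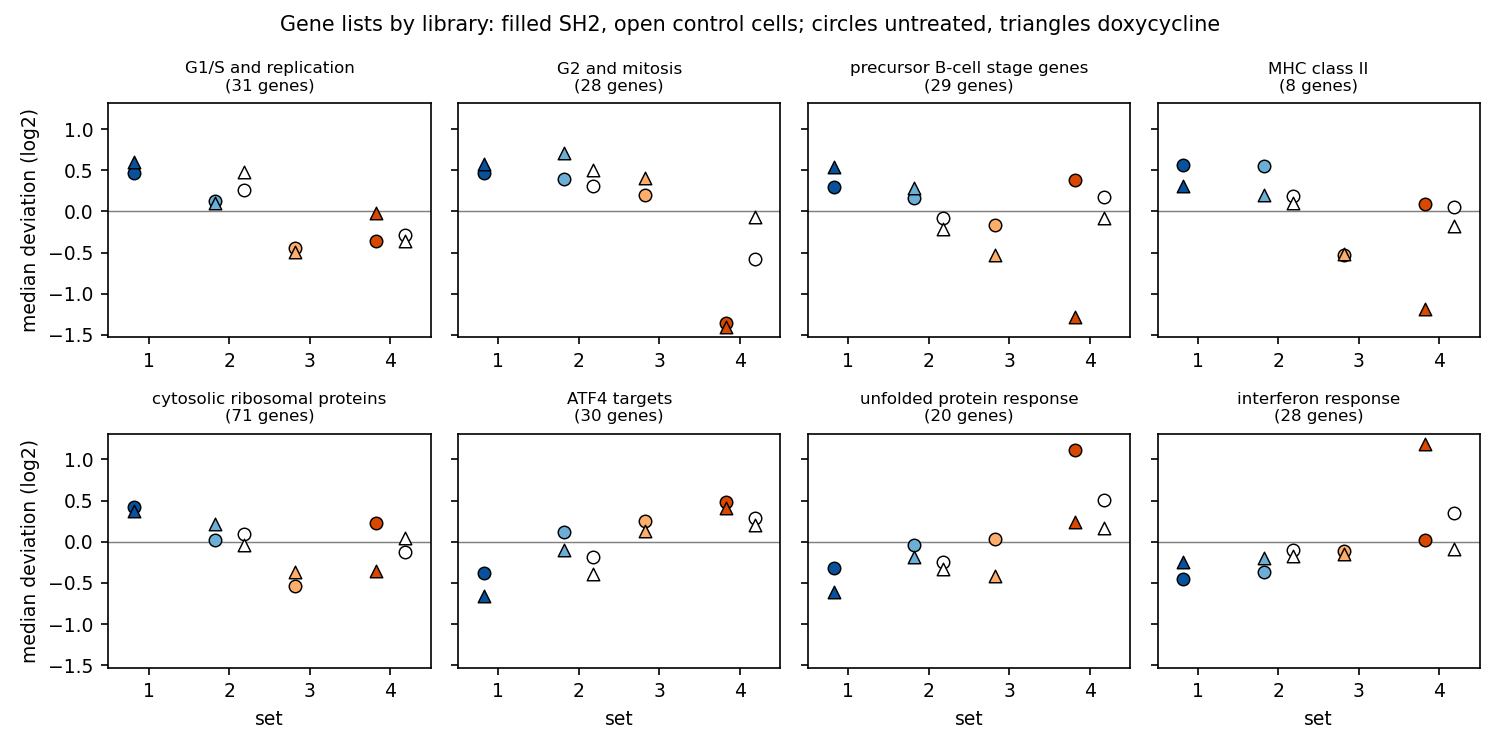
Median deviation of 8 gene lists from the mean of the same cells (log2 CPM with a pseudocount of 2), by library; filled symbols are SH2 and open symbols control cells, circles untreated and triangles treated. The G1 to S list runs from 0.60 in treated set 1 to -0.49 in treated set 3, and the list of G2 and mitosis is near -1.4 only in SH2 set 4.

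The control cells gave libraries that the choice of set pairs did not use. Beside the light chain reads given above, they stood apart from SH2 cells in IGF2BP1 (0 to 1.42 CPM, against 6.28 to 39.2 in SH2) and in MS4A1 (199 to 278 CPM, against at most 14.5). Whether the control and SH2 cells are the same line was not tested. Set 2 was compared with set 4, 2 libraries each, in a fit of all 12 libraries, which compares 1 set with 1 set. By edgeR's quasi-likelihood test 43 of 11968 genes passed (0.359%), 40 higher (0.334%) and 3 lower (0.0251%) in set 2, and 1283 had an unadjusted p under 0.05. T-cell genes were prominent in this difference. T-cell markers summed to 1975 to 2224 CPM in control set 2 and 127 to 259 in control set 4, and the T-cell genes MAL, CD3D, CD4 and GATA3 were among those that passed (CD3D was chosen for naming after its value was seen). The part of T-cell RNA in the other calls was not tested.

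Of the 435 genes higher in SH2 sets 1 and 2, 277 were also higher in control set 2 (63.7%, against 49.5% of all genes tested), with a median log2 difference of 0.27. At an unadjusted p under 0.05, 66 of the 435 were higher (15.2%, against 6.22% of all genes) and 15 lower. Of the 290 lower genes, 99 were positive in the control comparison (34.1%), the median was -0.37, and 34 were lower at an unadjusted p under 0.05 (11.7%, against 4.504%). After adjustment 4 of the 435 passed as higher (0.92%, against 0.334% of all genes tested). They are 10% of the 40 control calls, and the 435 are 3.63% of all genes tested. These 4 were TUBB, IRX3, HILPDA and IDH2, chosen for naming after their values were seen. IDH2, the mitochondrial NADP-dependent isocitrate dehydrogenase, was at 263 to 290 CPM in SH2 sets 1 and 2 and 101 to 137 in sets 3 and 4. In control cells it was at 159 and 210 CPM in set 2 and 62.9 and 67.2 in set 4 (1.49, adjusted p = 0.0495). HILPDA, a lipid droplet protein induced by low oxygen, was at 103 to 233.4 CPM against 46.8 to 92.0 in SH2 cells and at 450 and 295 against 63.6 and 73.0 in control cells (2.42, adjusted p = 0.0334). IRX3, a homeobox factor, was at 3.85 to 10.9 CPM against 0.324 to 1.01 in SH2 cells, and its control difference was 3.77 (adjusted p = 0.0132). TUBB differed by 3.57 (adjusted p = 0.00607) in control cells, but at most 6.28 CPM in SH2 cells were assigned to this tubulin gene, whose copies can share reads.

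Of the 290 lower genes 1 also passed as lower in control set 2 (0.345%, against 0.0251% of all genes tested). This was P2RX7, the ATP-gated channel (chromosome 12, 121132819 to 121188032). It was at 15.2 and 23.9 CPM in SH2 set 1, 26.4 and 23.5 in set 2, 65.4 and 87.3 in set 3, and 70.3 and 79.2 in set 4 (-1.75 ± 0.24). In control cells it was at 1.42 and 0.961 CPM in set 2 and 19.2 and 5.35 in set 4, a log2 difference of -3.15 (adjusted p = 0.0284). With 1 control library left out the adjusted p of P2RX7 was between 0.376 and 0.626, and of the 43 calls only MAL and IRX3 passed in any of these 4 fits, in 2 of them. GDF15 had -2.76 (adjusted p = 0.0679), RRM2 1.80 (0.0973) and TYMS 1.65 (0.163) in the control comparison, and none of these passed. TMSB15A, MT1G and ALDH1A1 had 1.92, 0.21 and -0.41.

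By list, the control medians were 0.82 for genes of G1 to S and 0.78 for G2 and mitosis, beside 0.67 and 0.93 in SH2 cells. They were -0.50 for ATF4 targets and -0.52 for the unfolded protein response, beside -0.50 and -0.81. For the precursor B-cell list the control median was -0.39 and the SH2 median 0.58. These medians were on opposite sides of 0. So were those of immediate early genes (control 0.16, SH2 -0.53), NF-kB targets (0.16 and -0.32) and immunoglobulin genes (-0.24 and 0.42), among others. B-lineage transcription factors (-0.37 and 0.17) and the IGF2BP and LIN28 list (0.87 and -0.07) also were. MHC class II (0.31 and 1.20) and interferon response genes (-0.30 and -1.13) were among those on the same side. None of these differences between lists was tested. For glycolysis and hypoxia the control median was 0.81 beside 0.35.

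**Figure D5:**
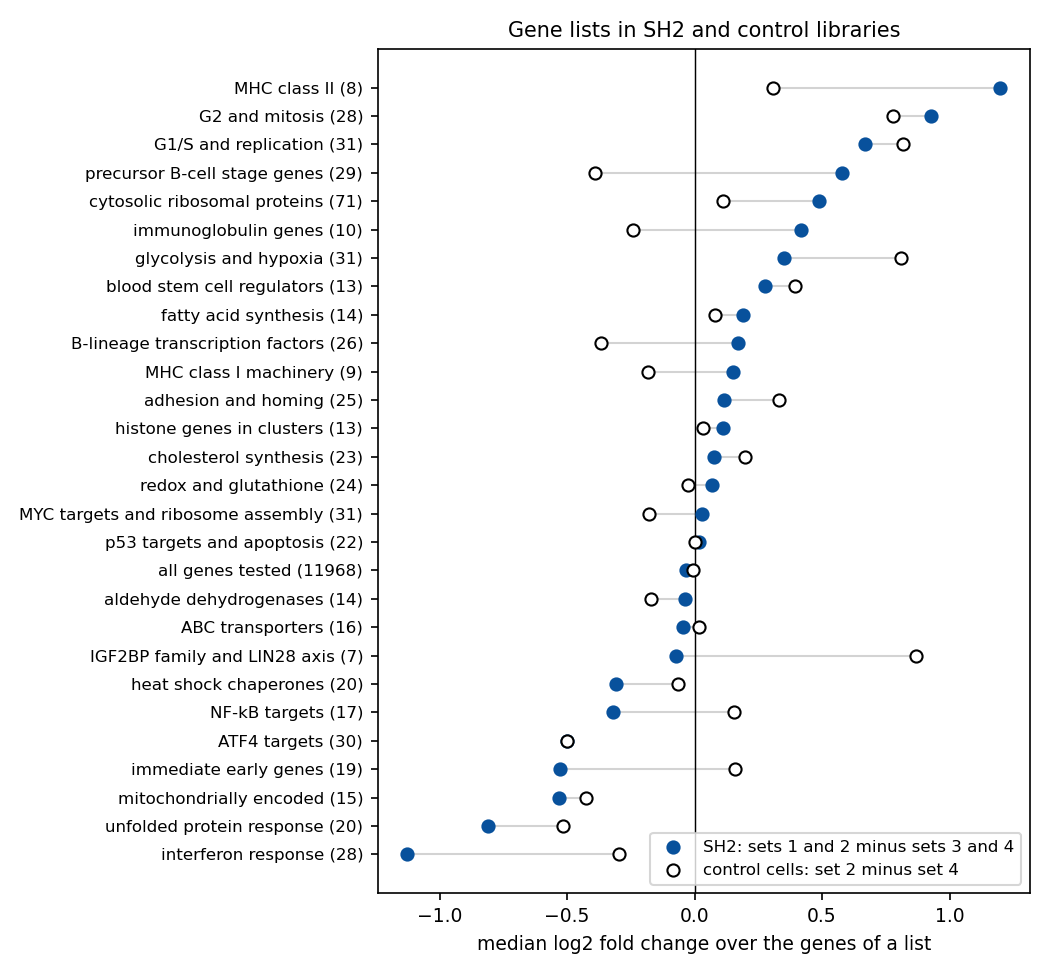
Median log2 fold change of each gene list (number of genes in brackets) in SH2 cells, sets 1 and 2 minus sets 3 and 4 (filled), and in control cells, set 2 minus set 4 (open). The ATF4 targets lie at -0.50 in both, and the precursor B-cell list at 0.58 and -0.39.

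The response to doxycycline within the set pairs is a contrast that did not choose them. By edgeR's quasi-likelihood test 0 of 11968 genes passed for a difference in response between the set pairs, 260 genes had an unadjusted p under 0.05 for doxycycline in sets 1 and 2, and 1216 in sets 3 and 4, with 0 past adjustment in either. That fit had no term for the SH2 sets. For the difference itself 460 genes (3.84%) had an unadjusted p under 0.05, and 924 with the set as a block. Both fits left 0 genes past adjustment for the difference. DESeq2's Wald test called 5 genes for the difference, 1 for doxycycline in sets 1 and 2 and 46 in sets 3 and 4. RPS12, a ribosomal protein gene, was at 10647 CPM untreated and 1548 treated in set 1, 8425 and 1756 in set 2, 8444 and 1730 in set 3, and 7816 and 597 in set 4. Treated was below untreated in all 4 sets, by -2.53 ± 0.44 in sets 1 and 2 (adjusted p = 0.762) and -2.80 ± 0.45 in sets 3 and 4 (adjusted p = 0.0984). With the set as a block RPS12 passed in sets 1 and 2 (adjusted p = 0.022) as the 1 gene called, and 11 genes passed in sets 3 and 4. The difference between its responses was 0.28 ± 0.59, smaller than its standard error (adjusted p = 1).

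The smallest p-values for a difference in response were those of TNFAIP2, RP11-423H2.1, MLX, PPM1H and SBDS, each with an adjusted p of 1. TNFAIP2, a gene induced by tumour necrosis factor, went from 1.23 to 14.2 CPM in set 1 and from 2.37 to 8.73 in set 2 with doxycycline, and from 5.18 to 1.32 in set 3 and 7.85 to 0.674 in set 4. The difference was 5.26 ± 0.995 (log2). MLX, a partner of glucose-sensing transcription factors, was at 52.8 and 7.91 CPM in set 3 and 78.8 and 6.40 in set 4, and between 28.5 and 49.6 in sets 1 and 2 (3.24 ± 0.67). SBDS, which acts in maturation of the large ribosomal subunit, was at 130 untreated and 25.4 treated CPM in set 3 and at 85.4 and 24.6 in set 4, and stood at 58.6 and 55.3 in set 1 and 25.2 and 91.5 in set 2 (2.93 ± 0.65). ASS1, the argininosuccinate synthase, had -4.09 ± 0.65 with doxycycline in sets 3 and 4 (adjusted p = 0.0984) and -1.20 ± 0.57 in sets 1 and 2. The precursor B-cell list had a median response of 0.21 in sets 1 and 2 and -0.88 in sets 3 and 4, and treated set 4 was the library farthest from the mean for this list (-1.28).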

How the data were processed

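The authors deposited whole-number counts of reads per gene ID for each of the 12 libraries. FastQC, STAR, HTSeq and DESeq2 and the build hg38 (GRCh38) are named per the submitters' processing notes, with versions and annotation not given in the sources used here. Per the labels' protocols, libraries were made from total RNA with a QuantSeq kit that captures the 3′ end of poly(A) RNA, so a gene is counted mainly near its last exon and a change in the end used can alter its count. The 5 summary lines of HTSeq below the 64253 gene IDs of a table stayed out of library sizes and tests. Reads aligned to several places took 42.2% to 63.8% per library and reads outside genes 3.25% to 7.73%. Names came from a deposited table of normalized values, whose 12 columns of values were not used. Positions are from GENCODE v29. The summed level of the B-cell precursor markers is not reported here.

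The tool was edgeR 4.0.16 under R 4.3.3. Genes passed filterByExpr by labelled group (minimum count 10) and TMM scaled the libraries. The set pairs were fitted on the 8 SH2 libraries with doxycycline as a covariate and no term for the set. The control comparison and the doxycycline responses came from 1 quasi-likelihood fit of all 12 libraries, adjusted by Benjamini-Hochberg over the 11968 genes tested (threshold 0.05). With 5 residual degrees of freedom, p-values measure the spread between these libraries. The scripts were tested on simulated data. Promoter sequences are from RefSeq (GRCh38.p14).

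The members, gene lists (32 lists, 722 genes) and tests were chosen with earlier results of these data known. The genes named were, where the mean log2 CPM was 3 or more, the 12 largest folds per direction among those meeting the rule (clone names left out), the genes of the title and their family, the 4 members of each list with the largest differences, and the genes with the smallest p-values of each test. Other list members named because they met the 2-fold rule, and the metallothioneins beside MT1G, were chosen after their values were seen. Set numbers come from the labels. Deviations of untreated and treated SH2 libraries of the same set correlated at 0.182 to 0.650, all over 0.1. The set numbers were therefore taken to pair the samples in the fits with the set as a block. The main tests of doxycycline in SH2 cells had no term for the set. Between different sets the correlation ran from -0.544 to 0.267, and untreated set 1 with treated set 2 (0.267) and untreated set 3 with treated set 4 (0.224) were above the pair of set 2 (0.182). No replicate pair agreed within sampling noise (chi-square per degree of freedom 9.30 to 54.7). Alternatives were DESeq2 size factors, DESeq2 1.42.0, no filter, other sample choices, a 1.5-fold threshold, limma 3.58.1 voom or a term per set as a block, and leaving out libraries and sets.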

Additional observations from a re-analysis of the deposited data

Results flagged for a closer look

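Among 77 genes and 7 library measures checked within the 4 untreated and the 4 treated SH2 libraries (168 groups of 4), 7 held a library that stood apart, the gap to its nearest neighbour as a share of the range being above Dixon's 95% critical value; chance alone flags about 1 in 20 such groups. Treated set 4 stood apart in 5 of them: CYTH4 was at 83.2 CPM (2.51 to 6.59 in the other treated libraries), SAMHD1 at 87.2 (7.12 to 10.5), MS4A1 at 14.5 (0 to 1.32), WARS at 1756 (185 to 447) and HOXB4 at 0.337, which is 1 read against 0 in the others. GIMAP8 was at 26.0 CPM in treated set 3 (4.18 to 7.75 in the other treated libraries). ALDH7A1 was at 24.6 CPM in untreated set 1 (0.648 to 4.15 in the other untreated libraries).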

How the results depend on the processing

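For the set pairs in SH2 cells, 725 genes met the rule (435 higher, 290 lower in sets 1 and 2). The counts moved by more than 1.5 times in untreated libraries only (1316; 700 and 616), treated libraries only (2403; 1355 and 1048), with a 1.5-fold threshold (1280; 676 and 604), and without set 2 (2039; 1111 and 928), set 3 (1735; 985 and 750) or set 4 (1498; 881 and 617). Fewer libraries make an absence of overlap easier by construction. Without a filter the lower count was 457. Leaving out 1 library gave 688 to 1318 genes (409 to 797 higher, 279 to 521 lower). The count was 1318 without untreated set 4 and 1164 without untreated set 2, and the lower count was 444 without treated set 3. With the set as a random block the count was 718, 693 of them among the 725. That setting changed only the fitted fold and kept the same overlap rule. No standard error enters the rule, so this count cannot show what dependence between libraries of a sort does. Of the log2 fold changes of named genes under the alternatives, 2518 moved by less than the replicate spread and 218 by more. Genes that did not meet the rule could change sign, as IGF2BP3 did, from -0.07 to 0.18 in treated libraries only.

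The control comparison (43 genes) gave 262 without a filter, 295 with a term per SH2 set as replicate block, 1102 on the control libraries alone and 111 by DESeq2's Wald test. It gave 0 to 2 with 1 control library left out, a fit in which the lone library is assumed to vary like the other groups. The difference in doxycycline response (0 genes) gave 23 without a filter, 5 by DESeq2, 0 with the block and 0 to 7 with 1 library left out (7 without treated set 3). Doxycycline in sets 1 and 2 (0 genes) gave 3 without a filter, 1 with the replicate block, 1 by DESeq2 and 0 to 1 with 1 library left out. In sets 3 and 4 (0 genes) the counts were 184 without a filter, 11 with the replicate block, 46 by DESeq2 and 0 to 464 with 1 library left out (464 without treated set 3). List values without set 1, set 4 or treated set 4 and in untreated libraries alone were chosen after seeing the data. The cause of these changes was not tested. At 2210291 to 3370952 reads per library, genes under a log2 CPM of 3 rest on few reads, and changes in them may not be detectable at this depth.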
